A study of Mus musculus with 12 samples.

Results

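In neural stem cells (NSCs) from Ncf1-/- mice, 83 genes were measured at a lower level than in wild-type (WT) NSCs and, after addition of recombinant Igfbp2, at a level near that of WT. They were chosen from the measured values of all 12 libraries. A gene's level was its expected count divided by the library's counts, times 1000000 (CPM), leaving out 5 very abundant short RNAs (Rn7s1, Rn7s2, Rn7sk, Rpph1 and Rmrp), and a shift was the log2 ratio of 2 group means after adding 0.5 CPM to each. The genes had a highest group mean of at least 2 CPM, a shift of −0.585 or lower between untreated Ncf1-/- and WT, a shift of 0.585 or higher between Igfbp2-treated and untreated Ncf1-/-, and a shift within 0.5 of 0 between Igfbp2-treated Ncf1-/- and WT. Kdm5c, a chromatin gene on the X chromosome, was dropped by the same rule. The 83 genes are 0.618% of the 13431 genes with a highest group mean of at least 2 CPM, of 45792 genes listed. All 3 comparisons between the groups were used to choose them, so their differences are given below as descriptions, and calls from the fit across all genes are no independent evidence for them.

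Ncf1 encodes a cytosolic subunit of the NADPH oxidase that makes superoxide in phagocytes and, at a lower level, in NSCs. Igfbp2 is a secreted protein that binds insulin-like growth factors and also acts on the cell surface. NSCs of the neonatal forebrain divide in culture in the presence of EGF and FGF and can give rise to neurons, astrocytes and oligodendrocytes, and their state depends on growth factor, insulin and matrix signals, which act on immediate early genes, FOXO factors and lipid synthesis.

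RNA was from primary cultures of neonatal mouse NSCs grown in serum-free medium with EGF, FGF, insulin, transferrin, selenite and B-27. The groups were untreated WT NSCs, untreated Ncf1-/- NSCs and Ncf1-/- NSCs given mouse recombinant Igfbp2 at 100 ng per ml 48 h after plating and collected 48 h later, with 4 libraries each. The study's methods give a lower concentration of Igfbp2 than the label. WT and untreated Ncf1-/- cultures are labelled as having no treatment, and the study's methods describe a vehicle for the untreated Ncf1-/- cultures and a pair of cultures from each Ncf1-/- animal. No WT culture was given Igfbp2, so the treatment is known in Ncf1-/- NSCs alone. RNA depleted of ribosomal RNA was sequenced, and the expected counts summed to between 18201622 and 34086554 per library (median 20932987).

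Some libraries stood apart or went against their labels. Ncf1 itself had between 1 and 7 expected counts per library, so the genotype could not be checked from it. Igfbp2 RNA was at 30.5 to 260.6 CPM in WT, 783.5 to 967 CPM in untreated and 1089 to 1405 CPM in Igfbp2-treated Ncf1-/- libraries. The summed level of 6 Y-linked genes was 118.9 to 135.1 CPM in WT replicates 1 to 3 and 7.03 CPM in the library labelled WT replicate 4. It was 132.5 to 142.4 CPM in the 4 untreated Ncf1-/- libraries and 8.25 to 10.2 CPM in the 4 Igfbp2-treated ones, which goes against a pair of cultures from each animal. Xist, the RNA of the inactive X chromosome, was at 4.33 to 5.95 CPM in WT replicates 1 to 3, 315.8 CPM in WT replicate 4, 91.0 to 108.4 CPM in untreated and 182.1 to 305.8 CPM in Igfbp2-treated Ncf1-/- libraries. Sex-linked RNA and treatment therefore cannot be told apart in the Ncf1-/- libraries. Xist also differed between WT replicates 1 to 3 and the untreated Ncf1-/- libraries. Both Xist and Y-linked RNA differed between WT replicates 1 to 3 and the treated libraries. For these libraries sex-linked RNA and genotype cannot be told apart either. On the X chromosome lie 2 of the 83 genes (Nhsl2 and Pabpc1l2b-ps, 2.41% beside 3.4% of all 13431 genes). The part of sex in the values of the other members was not tested. Each of the 4 untreated Ncf1-/- libraries held both Y-linked RNA and Xist, where the study's methods give cells of each pup grown separately. Whether the 4 libraries of a group are 4 separate animals could not be checked, and n = 4 below counts libraries. A sample list in the study's code gives the library labelled WT replicate 4 as treated with apocynin, an inhibitor of NADPH oxidase, where its deposited label gives no treatment. It is called WT replicate 4 here, and the members that rest on it are given with their values without it.

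The step from WT to Ncf1-/- was met by many genes and the step back by few. Of the 13431 genes, 1920 were lower in untreated Ncf1-/- than in WT by the limit of the rule, 153 of these were also higher after Igfbp2 by the limit, and 83 of the 153 came within 0.5 of WT. Of the other 70, 60 stayed further than 0.5 below WT and 10 lay further than 0.5 above it. The median shift of the 83 genes was −0.89 between untreated Ncf1-/- and WT, 0.86 between Igfbp2-treated and untreated Ncf1-/-, and −0.08 between Igfbp2-treated Ncf1-/- and WT. Over all 13431 genes the same medians were 0.17, −0.12 and 0.01, so that on this scale genes at large moved the other way from the members at both steps. With shifts centred on those medians, a choice made after seeing the data, 157 genes met the rule, the 83 among them. The direction of genes at large depended on the scaling. Their medians from WT to Ncf1-/- and with Igfbp2 were 0.004 and 0.06 with CPM scaled by edgeR's TMM factors. With rescaled TPM, which allows for length, they were −0.11 and −0.09. The RNA was from whole cultures, so that fewer cells of a type and less RNA per cell cannot be told apart in any of these values.

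**Figure D1:**
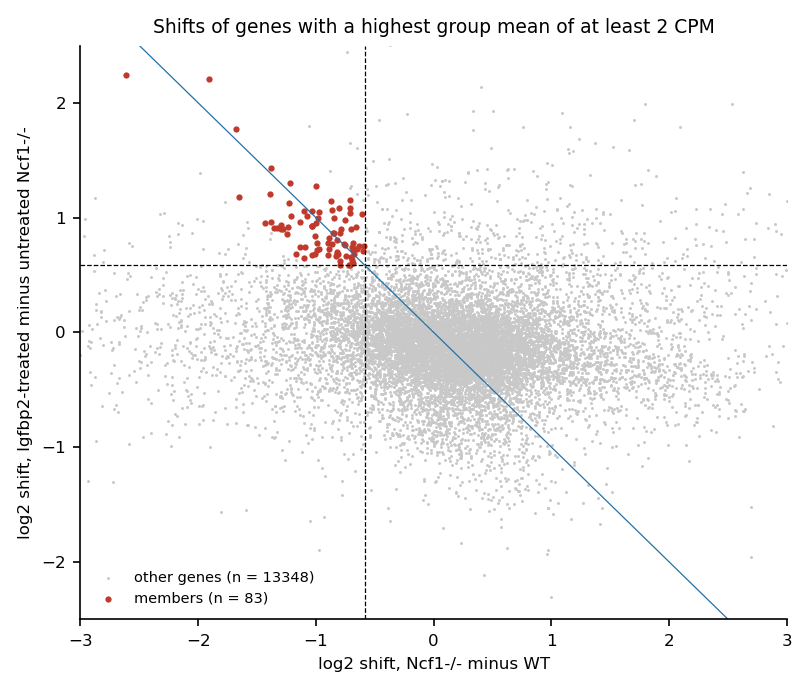
Each point is a gene with a highest group mean of at least 2 CPM, placed by its log2 shift between untreated Ncf1-/- and WT (x axis) and between Igfbp2-treated and untreated Ncf1-/- (y axis). The 83 members (red) lie in the upper left corner set by the dashed limits and along the blue line, on which treated Ncf1-/- equals WT. Of the 13431 genes, 169 lie outside the axes.

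Most members stood apart between single libraries as well as between means. The 4 untreated Ncf1-/- libraries lay below the 4 WT libraries for 49 of 83 members, where 20.4% of the 13431 genes did so. They lay below the 4 Igfbp2-treated libraries for 67 of 83, where 10.3% of all genes did so, and below the 8 other libraries for 45 of 83, where 2.75% did so. Members had been chosen on these differences, and nothing is read from the counts. A model across all genes (edgeR's quasi-likelihood test, Benjamini-Hochberg adjusted p under 0.05) called 73 of the 82 members that passed its filter lower in untreated Ncf1-/- than in WT, beside 28.2% of 15706 genes. It called 68 of 82 higher after Igfbp2, beside 14.2%, and 4 of 82 different between Igfbp2-treated Ncf1-/- and WT, beside 62.4%. The last 4 were Ncan and Sparcl1, which were lower than in WT (log2 fold changes −0.46 and −0.43), and Lrp5 and Irs2, which were higher (0.44 and 0.36). The member left out by the filter was Gm20388. The limits of the rule had fixed these shares too, high at both steps and low against WT, and nothing is read from them.

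**Figure D2:**
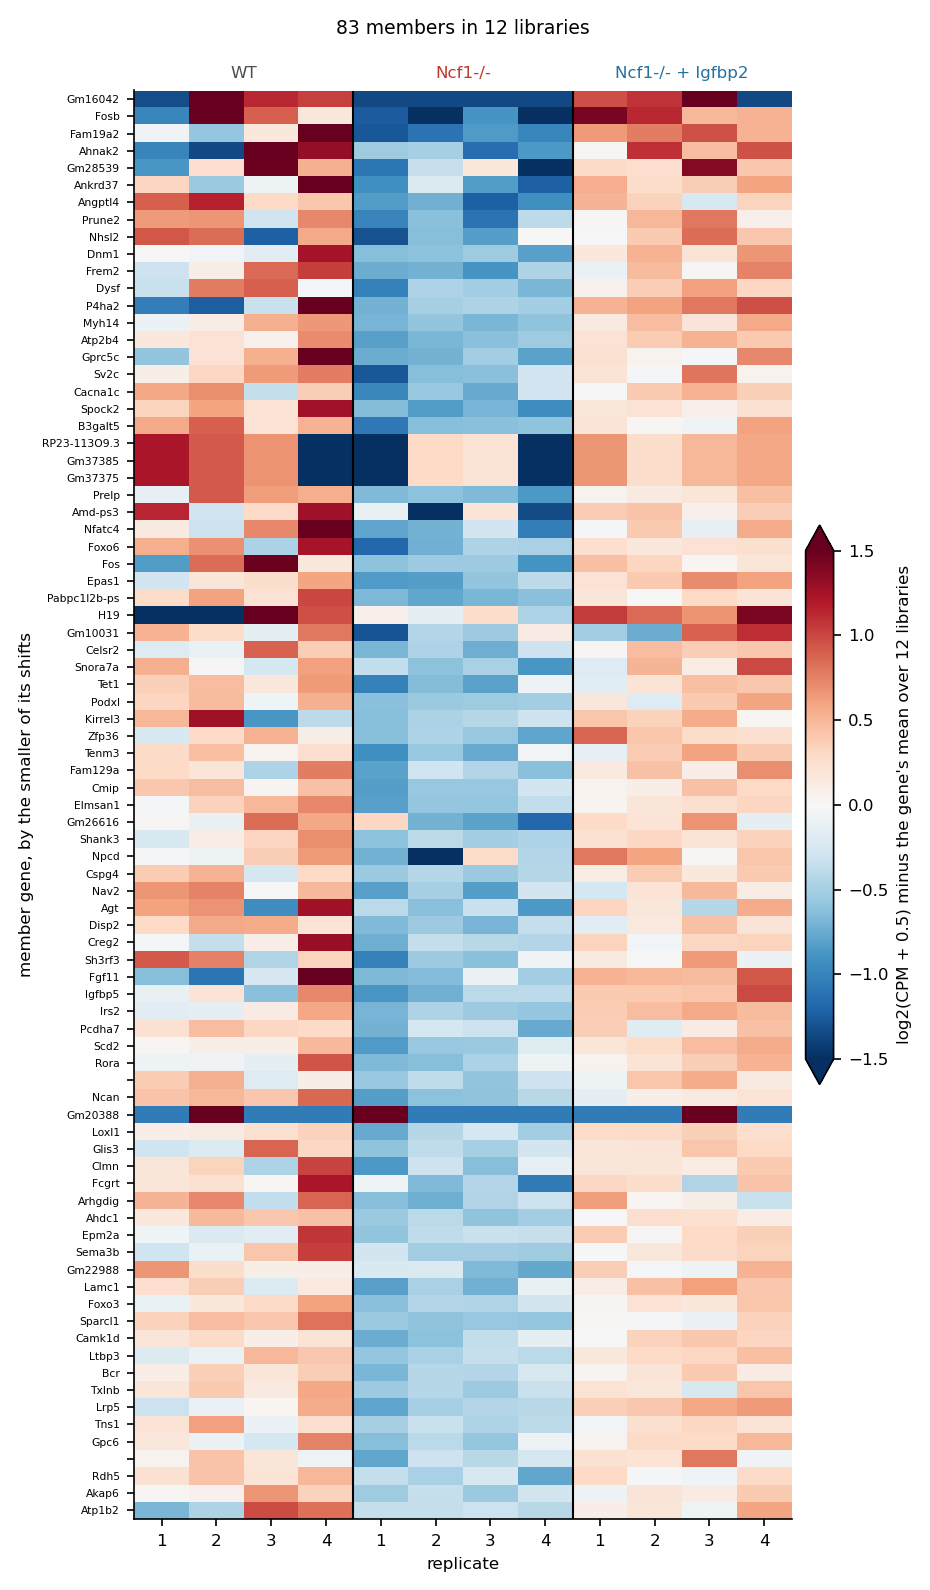
Rows are the 83 members (2 of them without a name), ordered by the smaller of their shifts, and columns the 12 libraries. The colour gives log2(CPM + 0.5) minus the gene's mean over the 12 libraries, from blue (lower) to red (higher), with full colour at 1.5. The untreated Ncf1-/- columns are blue for most genes, and WT replicates 3 and 4 depart from the other WT libraries for single genes such as H19 and Fgf11.

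The spread among WT libraries was wider for the members than for genes at large. The median SD over the 4 WT libraries was 0.44 on the log2(CPM + 0.5) scale, beside 0.19 over all 13431 genes. It was 0.22 beside 0.13 in untreated and 0.22 beside 0.15 in Igfbp2-treated Ncf1-/- libraries. WT replicate 4 was the highest WT library for 45 of the 83 members (54.2%, beside 19.5% of all genes), and WT replicate 3 was the lowest for 35 (42.2%, beside 23.6%). Among untreated Ncf1-/- libraries, replicate 1 was the lowest for 46 members (55.4%, beside 43.3%). The rule uses group means, so a gene whose WT mean is lifted by a single library can meet it. Genes at large were also not matched to the members for level, and nothing is read from these spreads and ranks.

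As a reading in libraries that the rule had not used, the rule was applied to 11 libraries and the genes it found were read in the library left out. With a WT library left out, 69 to 100 genes met the rule, and between 44.0% (replicate 1) and 84.1% (replicate 4) of them were past the limit in that library against the untreated mean. The share over all genes was 13.4% to 15.2%. With an untreated library left out, 52.1% to 80.7% of 83 to 96 genes were past both limits in it, beside 1.47% to 2.35% of all genes. With a treated library left out, 63.9% to 87.7% of 73 to 97 genes were past the limit in it, beside 4.06% to 6.01%. The other side of each of these shifts was a mean that the rule had used, so higher shares than over all genes were fixed in part by the choice. Genes at large were not matched to the chosen genes for that mean. The 4 libraries of a group may also not be separate animals, and nothing is read from the difference in shares.

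**Figure D3:**
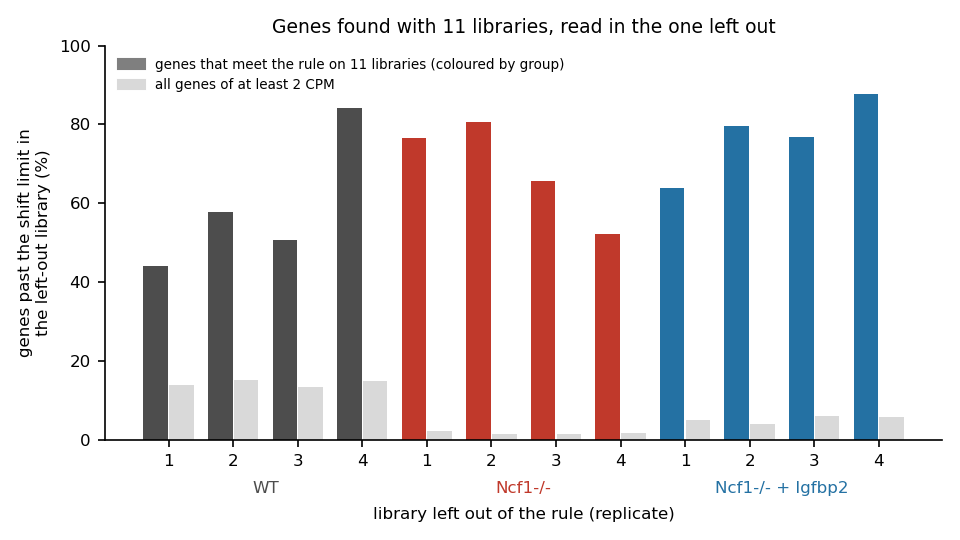
Bars give the percent of genes past the shift limit (both limits for untreated Ncf1-/-) in the library named on the x axis, which was left out of the rule. Coloured bars are the genes that met the rule on the other 11 libraries and grey bars all genes with a highest group mean of at least 2 CPM. The coloured bars range from 44.0% (WT replicate 1) to 87.7% (Igfbp2-treated replicate 4), and the grey ones stay between 1.47% and 15.2%. The grey bars are not a matched comparison, and nothing is read from the difference.

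Among the members are 3 immediate early genes, which cells transcribe within minutes of a growth factor signal. Fos, a subunit of the transcription factor AP-1, was at 27.4, 88.7, 138 and 55.5 CPM in WT replicates 1 to 4, 32.3, 33.6, 33.7 and 26.4 CPM in untreated and 68, 61.9, 50.4 and 56 CPM in Igfbp2-treated Ncf1-/- libraries. The treated libraries lay above all untreated ones, while WT replicate 1 was within the untreated range, and the means were 77.3 ± 47.4, 31.5 ± 3.45 and 59.1 ± 7.58 CPM (SD, n = 4 each) in WT, untreated and treated libraries. Fosb, another AP-1 subunit, was at 1.02, 7.81, 5.05 and 2.84 CPM in WT, 0.753, 0.561, 1.11 and 0.552 CPM in untreated and 7.49, 6.04, 3.66 and 3.77 CPM in treated libraries. WT replicate 1 again lay among the untreated libraries, and the shifts of Fosb were −1.91 from WT to Ncf1-/- and 2.21 with Igfbp2, the widest pair after that of the gene model Gm16042. Zfp36, an RNA-binding protein that speeds the decay of mRNAs with AU-rich elements, was at 6.66, 9.79, 11.6 and 8.4 CPM in WT, 4.89, 5.61, 5.17 and 4.37 CPM in untreated and 14.8, 10.7, 9.68 and 9.4 CPM in treated libraries. Its untreated libraries lay below the 8 others, with shifts of −0.80 and 1.08.

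As a list, immediate early genes did not share one pattern. The counts and medians of this list and of the gene lists below include their members, which the rule had chosen for their shifts. Of the 32 genes of the list that were tested, 7 were called lower and 10 higher in untreated Ncf1-/- than in WT, beside 28.2% and 28.9% of all genes tested. With Igfbp2, 16 were called higher and 1 lower than in untreated Ncf1-/-, beside 14.2% and 10.7%. The median shifts of the 29 genes of at least 2 CPM were 0.36 from WT to Ncf1-/- and 0.51 with Igfbp2, beside 0.17 and −0.12 over all genes. Egr1, a zinc finger transcription factor, fell from a mean of 57.8 CPM in WT to 31.9 CPM in untreated and rose to 250.7 CPM in treated Ncf1-/- NSCs, above WT and so outside the rule. Ier3, which encodes a stress-induced survival protein, was at means of 9.0, 32.5 and 130.4 CPM in the same order, and was called higher at both steps.

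The 250 bases before the RefSeq starts of Fos, Fosb and Irs2 are shown because these members are known to respond to growth factor and insulin signals and their starts are in the promoter table (GRCm38.p6). The window of Zfp36 is not shown, since it lies within a longer GENCODE M21 model of the gene. Capitals mark motifs searched on both strands, and adjoining capitals can belong to more than one motif. The Fos window is chr12:85473640-85473889 (+), the Fosb window chr7:19310046-19310295 (−) and the Irs2 window chr8:11008930-11009179 (−), each printed 5′ to 3′ on the strand of the gene.
Fos: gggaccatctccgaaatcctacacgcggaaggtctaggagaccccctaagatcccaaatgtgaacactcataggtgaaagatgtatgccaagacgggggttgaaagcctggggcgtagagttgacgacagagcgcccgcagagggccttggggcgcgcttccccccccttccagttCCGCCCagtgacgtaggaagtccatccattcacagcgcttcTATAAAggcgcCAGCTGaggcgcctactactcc
Fosb: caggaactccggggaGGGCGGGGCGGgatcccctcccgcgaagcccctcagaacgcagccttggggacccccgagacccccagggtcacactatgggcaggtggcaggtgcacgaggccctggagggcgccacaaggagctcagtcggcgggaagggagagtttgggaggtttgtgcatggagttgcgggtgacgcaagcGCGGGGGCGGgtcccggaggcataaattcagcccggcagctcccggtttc
Irs2: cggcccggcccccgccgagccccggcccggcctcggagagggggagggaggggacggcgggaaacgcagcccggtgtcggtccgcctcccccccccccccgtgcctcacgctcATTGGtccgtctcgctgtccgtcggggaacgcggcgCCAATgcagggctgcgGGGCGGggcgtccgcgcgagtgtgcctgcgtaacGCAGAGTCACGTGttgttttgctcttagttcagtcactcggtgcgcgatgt
GGGCGG (SP1) was found in the 3 windows, and 65.9% of the 9668 genes of at least 2 CPM with a window hold it. GCGNGGGCG (EGR) was found before Fosb, where it overlaps a GGGCGG, and 11% of genes hold it. TATAAA stands 33 to 28 bases before the start of Fos (7.26% of genes) and CAGCTG 22 to 17 bases before it (14.2%). CCAAT (41.2%, once on each strand), CACGTG (9.99%) and TGACNNNGC (14.1%) were found before Irs2, and the last of them overlaps CACGTG. Windows matched 45 of the 83 members by symbol (54.2%), which is too few to compare motif shares between members and other genes, so that comparison was void.

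Genes of the insulin and IGF pathway formed another group. Irs2, the adaptor that passes insulin and IGF receptor signals to PI3 kinase, was at 108, 109.8, 132 and 181 CPM in WT, 74.4, 87.1, 82.5 and 80.2 CPM in untreated and 157, 166, 179 and 168 CPM in treated libraries. Untreated libraries lay below the 8 others, treated ones were above 3 of the 4 WT libraries, and the shifts were −0.71 and 1.04. Igfbp5, a secreted IGF-binding protein, was at 391, 489, 274 and 699 CPM in WT, 231, 257, 319 and 324 CPM in untreated and 555, 558, 567 and 839 CPM in treated libraries. WT replicate 3 lay within the untreated range, and the treated mean was 0.44 above WT on the log2 scale, the highest such shift of the members. Without WT replicate 4, Igfbp5 left the rule, with shifts of −0.44 from WT to Ncf1-/- and 0.71 between treated Ncf1-/- and WT. Foxo3, a forkhead transcription factor held out of the nucleus by insulin signalling, was at 148, 178, 195 and 242 CPM in WT, 103, 117, 116 and 132 CPM in untreated and 164, 186, 178 and 213 CPM in treated libraries. The groups of untreated and other libraries did not overlap, and the shift with Igfbp2 was 0.66. Foxo6, a related factor of the brain, had means of 4.21 ± 2.05, 1.41 ± 0.403 and 3.07 ± 0.105 CPM (SD, n = 4 each) in WT, untreated and treated libraries.

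Of the 22 genes of the IGF and insulin list that were tested, 11 were called lower and 5 higher in untreated Ncf1-/- than in WT, beside 28.2% and 28.9% of all genes. With Igfbp2, 11 were called higher and 0 lower than in untreated Ncf1-/-, beside 14.2% and 10.7%. Some genes of the list that are not members were called lower and then higher without reaching both limits of the rule. Igf1r, the IGF receptor, was at means of 60.0, 40.6 and 63.7 CPM in WT, untreated and treated NSCs and was called at both steps, as was Insr, the insulin receptor, at 85.5, 72.0 and 106.5 CPM. Foxo1 was at 23.3, 12.45 and 18.1 CPM and was also called at both steps. Igfbp3 went another way, from 83.9 to 290.4 and 504 CPM, and was called higher at each step.

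Members of the response to low oxygen and of lipid metabolism came next. Epas1, the oxygen-regulated transcription factor HIF-2α, was at 36.5, 50.7, 53.8 and 67.7 CPM in WT, 24.7, 25.1, 29.6 and 33.9 CPM in untreated and 52.1, 59, 73.7 and 68.5 CPM in treated libraries. The untreated libraries lay below the 8 others, and its shifts of −0.87 and 1.15 met the rule under each of the 23 alternatives tried. P4ha2, a collagen prolyl hydroxylase, was at 2.54, 2.16, 4.49 and 23.1 CPM in WT, 3.33, 3.92, 4.04 and 3.89 CPM in untreated and 8.46, 9.02, 10.4 and 11.8 CPM in treated libraries. Its WT mean rests on WT replicate 4, and without that library the shift from WT to Ncf1-/- was 0.27 in place of −1.0. Ankrd37, a small ankyrin protein and known target of HIF-1, was at 2.85, 1.32, 2.05 and 8.46 CPM in WT, 0.914, 1.81, 1 and 0.644 CPM in untreated and 3.41, 2.73, 2.96 and 3.55 CPM in treated libraries. It too was highest in WT replicate 4, without which its shift from WT to Ncf1-/- was −0.69 in place of −1.39 and that between treated Ncf1-/- and WT 0.51 in place of −0.19. Ankrd37 overlaps Ufsp2 on the opposite strand, which was at 24.7 CPM over the 12 libraries.

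Angptl4, a secreted inhibitor of lipoprotein lipase, was at 5.79, 7.09, 3.67 and 3.99 CPM in WT, 1.4, 1.56, 0.945 and 1.29 CPM in untreated and 4.32, 3.81, 2.37 and 3.77 CPM in treated libraries. The untreated libraries lay below the 8 others at few counts, with shifts of −1.65 and 1.18. Scd2, the main fatty acid desaturase of the brain and the most abundant member in CPM and in TPM (which allows for length), was at 5306, 5520, 5520 and 7273 CPM in WT, 2889, 3517, 3541 and 4602 CPM in untreated and 5908, 6328, 7193 and 7651 CPM in treated libraries. The 4 untreated libraries were the lowest of the 12, and the mean TPM was 729.7 in WT, 415.8 in untreated and 630.7 in treated NSCs. Fgf11, an intracellular FGF homologue, was at 16.4, 11.8, 21.4 and 73.1 CPM in WT, so that 1 WT library stood above the untreated ones, which were at 15.9, 16.3, 24.2 and 17.8 CPM, and without WT replicate 4 its shift from WT was 0.16 in place of −0.71.

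Of the 37 genes of the hypoxia and glycolysis list tested, 5 were called lower and 7 higher in untreated Ncf1-/- than in WT (28.2% and 28.9% of all genes), and 10 were called higher and 0 lower with Igfbp2 (14.2% and 10.7%). Compared with WT, 22 were higher in treated Ncf1-/- NSCs and 1 lower, beside 31.6% and 30.8% of all genes. Of the 39 genes of cholesterol and fatty acid synthesis tested, 15 were called lower and 13 higher in untreated Ncf1-/- NSCs (28.2% and 28.9% of all genes). With Igfbp2, 21 were called higher and 0 lower (14.2% and 10.7%).

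Matrix genes and proteoglycans formed a further group. Ncan, which encodes the brain proteoglycan neurocan, was at 2654, 2790, 2616 and 3611 CPM in WT, 1121, 1289, 1301 and 1479 CPM in untreated and 1795, 2103, 2175 and 2279 CPM in treated libraries. Treated libraries lay between the other groups without overlap of either, and its shift from WT after treatment was −0.48. Cspg4, the NG2 proteoglycan of oligodendrocyte precursors and pericytes, was at 118, 130.0, 75.7 and 111 CPM in WT, 61.2, 67, 61.2 and 67.1 CPM in untreated and 97.8, 117, 101 and 118 CPM in treated libraries. Its treated and WT means were nearly equal (109 ± 23.3, 64.1 ± 3.4 and 109 ± 10.8 CPM (SD, n = 4 each) in WT, untreated and treated libraries). Spock2, a secreted testican proteoglycan, was at 24.8, 29.8, 22.7 and 47.3 CPM in WT, 12.3, 10.7, 11.8 and 10.02 CPM in untreated and 22.1, 22.8, 20.6 and 23 CPM in treated libraries. The untreated libraries of Spock2 lay below the 8 others, and its shifts were −1.43 and 0.95.

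Sparcl1, the matricellular protein hevin, was at 435, 472, 453 and 602 CPM in WT, 232, 225, 230.1 and 229 CPM in untreated and 346, 336, 322 and 435 CPM in treated libraries. The highest treated library of Sparcl1 (435.3 CPM) came up to the lowest WT library (435.4 CPM), and the untreated ones spanned 224.9 to 231.8 CPM. Prelp, a leucine-rich proteoglycan that anchors basement membranes, was at 5.49, 11.8, 9.57 and 9.01 CPM in WT, 3.6, 3.74, 3.61 and 3.08 CPM in untreated and 6.27, 6.67, 6.88 and 8.42 CPM in treated libraries. Its untreated libraries spanned less than 1 CPM and lay below the 8 others. Gpc6, a cell-surface glypican, was at 55.8, 46.6, 41.2 and 83.6 CPM in WT, 31.8, 37.2, 32.9 and 47 CPM in untreated and 51.5, 60.9, 61.2 and 70.5 CPM in treated libraries. Only 2 WT libraries of Gpc6 lay above the untreated ones, and it was among the members nearest the limit, with a shift of −0.60, which was −0.36 without WT replicate 4.

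Lamc1, the laminin γ1 chain of basement membranes, was at 276, 301, 201 and 256 CPM in WT, 132, 166, 140.3 and 215 CPM in untreated and 252, 316, 356 and 307 CPM in treated libraries. WT replicate 3 lay within the untreated range. Frem2, a basement membrane protein needed for epithelial adhesion, was at 36, 47.8, 80.5 and 92.3 CPM in WT, 26.3, 27, 23.9 and 32.2 CPM in untreated and 41.6, 61.9, 45.2 and 74.8 CPM in treated libraries, without overlap of untreated and other libraries. Loxl1, a lysyl oxidase that crosslinks elastin, was at 33.8, 34.3, 37 and 39.9 CPM in WT, 18.4, 23.2, 26.1 and 21.8 CPM in untreated and 38.1, 38.5, 40.3 and 37.6 CPM in treated libraries. Its WT and treated libraries shared a narrow range above the untreated ones. Ltbp3, which binds latent TGF-β in the matrix, was at 109, 118, 177 and 167 CPM in WT, 83.6, 89.9, 99.1 and 95.2 CPM in untreated and 140.1, 154, 156 and 172 CPM in treated libraries. The lowest WT library of Ltbp3 was above the highest untreated one.

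Of the 78 genes of the collagen, laminin and matrix list tested, 23 were called lower and 30 higher in untreated Ncf1-/- than in WT, the first near the share of all genes (28.2% lower, 28.9% higher). With Igfbp2, 27 were called higher and 3 lower (14.2% and 10.7% of all genes). Compared with WT, 36 were higher and 22 lower in treated NSCs (31.6% and 30.8%). The median shifts of the list were 0.30 from WT to Ncf1-/- and 0.40 with Igfbp2.

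**Figure D4:**
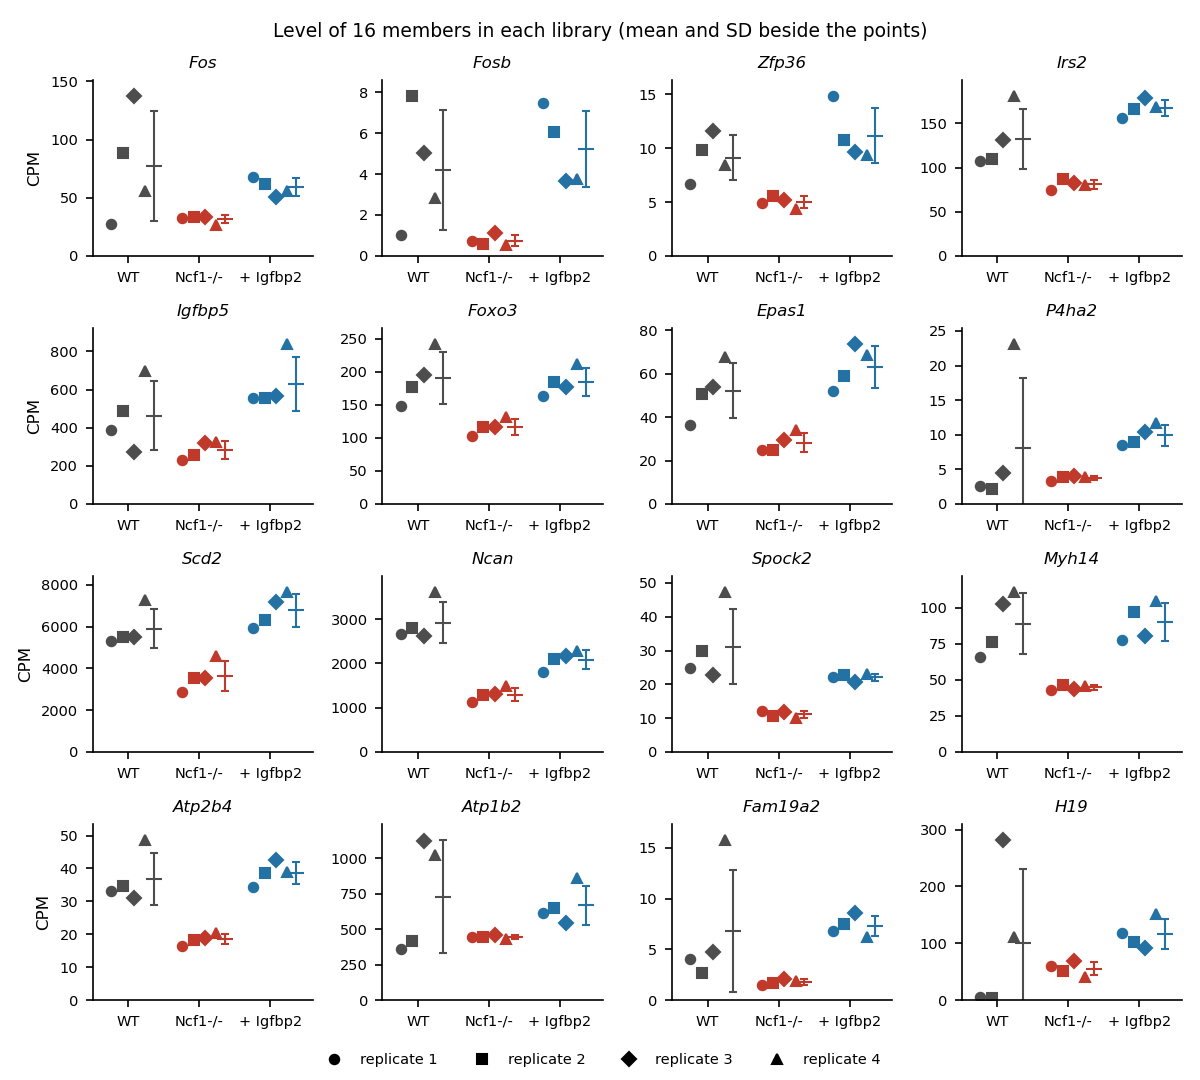
CPM of 16 members in each library, from 0, with a marker per replicate and, beside the points, the group mean and SD (n = 4; bars are cut at 0). The untreated Ncf1-/- points (red) lie below the Igfbp2-treated ones (blue) for each of the 16. The WT points (grey) are the widest group for every gene shown but Zfp36, for which the treated points are.

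Neuronal and membrane genes were also among the members. Sv2c, a glycoprotein of secretory vesicles, was at 15, 17.6, 22.3 and 24.4 CPM in WT, 5.59, 8.88, 9.03 and 11.5 CPM in untreated and 16.4, 13.9, 25 and 14.7 CPM in treated libraries. Shank3, a scaffold of excitatory synapses, was at 28.4, 36, 41.8 and 54.3 CPM in WT, 21.6, 25.2, 23.2 and 24 CPM in untreated and 39.2, 41.3, 38.4 and 42.6 CPM in treated libraries. In both genes the 4 untreated libraries were the lowest of the 12. Cacna1c, the pore of the L-type calcium channel, was at 26, 28.2, 13.3 and 22.4 CPM in WT, 8.55, 11.4, 10.01 and 14 CPM in untreated and 17.2, 22.7, 24.9 and 22.2 CPM in treated libraries. WT replicate 3 of Cacna1c fell among the untreated libraries. Dnm1, the neuronal dynamin of vesicle scission, was at 6.1, 5.95, 5.41 and 15.2 CPM in WT, 3.76, 3.8, 4.06 and 3.26 CPM in untreated and 6.88, 9.02, 7.15 and 10 CPM in treated libraries. Dnm1 was highest in WT replicate 4, and it overlaps Ciz1 on the opposite strand (50.8 CPM).

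Atp2b4, a plasma membrane calcium pump, was at 33, 34.5, 31 and 48.6 CPM in WT, 16.6, 18.1, 18.9 and 20.3 CPM in untreated and 34.5, 38.8, 42.5 and 38.8 CPM in treated libraries. The untreated libraries lay well below the 8 others, with shifts of −0.97 and 1.04. Atp1b2, a subunit of the sodium pump of glia that also acts in adhesion, was at 356, 413, 1123 and 1018 CPM in WT, 445, 445, 458 and 428 CPM in untreated and 614, 650.1, 545 and 861 CPM in treated libraries. WT replicates 1 and 2 were below every untreated library and replicates 3 and 4 were above every treated one, so that no WT library had the level that the mean gives. Fam19a2, a secreted chemokine-like protein of the brain, was at 4.02, 2.64, 4.75 and 15.8 CPM in WT, 1.45, 1.68, 2.11 and 1.89 CPM in untreated and 6.82, 7.5, 8.6 and 6.23 CPM in treated libraries. Treated libraries lay above WT replicates 1 to 3 and below WT replicate 4, without which the treated shift from WT was 0.86 in place of 0.09.

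Of the 56 genes of the synapse and vesicle list tested, 36 were called lower and 8 higher in untreated Ncf1-/- than in WT (28.2% and 28.9% of all genes), and 14 were called higher and 5 lower with Igfbp2 (14.2% and 10.7%). In treated Ncf1-/- NSCs, 30 genes of the list were called lower than in WT and 12 higher (30.8% and 31.6%). Of the 71 axon guidance genes tested, 43 were called lower and 13 higher in untreated Ncf1-/- NSCs, and 22 higher and 2 lower with Igfbp2, beside the same shares. Sema3b was the one member among them, at 1.98, 2.34, 3.57 and 5.74 CPM in WT, 1.99, 1.62, 1.61 and 1.61 CPM in untreated and 2.56, 2.92, 3.23 and 3.33 CPM in treated libraries.

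Myh14, a non-muscle myosin heavy chain, was at 66, 76.3, 102 and 111 CPM in WT, 43.1, 46.4, 43.6 and 45.9 CPM in untreated and 77.9, 97.3, 80.5 and 104 CPM in treated libraries. The untreated libraries spanned only 43.1 to 46.4 CPM, with shifts of −0.98 and 1.0. Nav2, a neuron navigator that binds the cytoskeleton, was at 669, 709, 419 and 592 CPM in WT, 240.4, 298, 237 and 344 CPM in untreated and 349.9, 486, 592 and 454 CPM in treated libraries. Celsr2, an atypical cadherin of planar polarity, was at 152, 163, 323 and 225 CPM in WT, 108, 126, 104 and 140.2 CPM in untreated and 176, 240.1, 225 and 231 CPM in treated libraries. Untreated libraries of Nav2 and Celsr2 lay below the 8 others. Dysf, the membrane repair protein dysferlin, was at 3.3, 7.69, 8.45 and 4.23 CPM in WT, 1.88, 2.99, 2.84 and 2.48 CPM in untreated and 4.5, 5.72, 6.88 and 5.47 CPM in treated libraries. Podxl, a sialomucin of the cell surface, was at 8.64, 9.68, 6.49 and 10.1 CPM in WT, 4.25, 4.49, 4.56 and 4.6 CPM in untreated and 7.73, 5.91, 9.09 and 10.5 CPM in treated libraries. These too had no overlap of untreated with other libraries.

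B3galt5, a galactosyltransferase, was at 7.27, 9.25, 5.57 and 7.01 CPM in WT, 1.99, 2.87, 2.89 and 2.94 CPM in untreated and 5.48, 4.83, 4.52 and 7.49 CPM in treated libraries. Prune2, a large BCH-domain protein, was at 23.8, 24.2, 12.2 and 25.3 CPM in WT, 7.37, 9.66, 6.78 and 11.4 CPM in untreated and 15.3, 21.7, 26.6 and 16 CPM in treated libraries. For each of them the highest untreated library was below the lowest of the 8 others, by less than 1 CPM for Prune2. Lrp5, a Wnt co-receptor, was at 59.5, 69.7, 76.3 and 109.9 CPM in WT, 42.8, 52.9, 54.7 and 55.6 CPM in untreated and 95.7, 98.5, 112 and 116 CPM in treated libraries. Its treated libraries were above 3 of the 4 WT libraries.

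Transcription and chromatin genes were found as well. Tet1, which oxidises methylated cytosine, had means of 73.6 ± 10.1, 36.3 ± 10.9 and 65.3 ± 11.8 CPM (SD, n = 4 each) in WT, untreated and treated libraries. The treated replicate 1 of Tet1 lay within the untreated range. Elmsan1 and Ahdc1, both nuclear proteins, had no overlap of untreated with other libraries, with shifts with Igfbp2 of 0.78 and 0.67. Rora, a nuclear receptor of the clock, Glis3, a Krüppel-like zinc finger factor, and Nfatc4, a calcium-regulated factor, had shifts of 0.74, 0.71 and 0.91 with Igfbp2, and WT overlapped untreated libraries for each of them.

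Untreated libraries lay below the 8 others for Cmip, an adaptor of signalling (−0.90 and 0.78), Bcr, a regulator of small GTPases (−0.70 and 0.63), Tns1, the focal adhesion protein tensin (−0.68 and 0.60), and Camk1d, a calcium-dependent kinase (−0.65 and 0.73). The same held for Akap6, which anchors protein kinase A, Epm2a, the glycogen phosphatase laforin, and Disp2, Creg2, Txlnb and Rdh5. Tenm3, a teneurin of neuronal wiring, had no overlap with WT but did with treated libraries, at 145, 162, 123 and 141 CPM in WT, 62.7, 80.1, 69.95 and 115 CPM in untreated and 109, 154, 180.4 and 156 CPM in treated libraries. Agt, the angiotensinogen made by astrocytes, overlapped in both comparisons, with WT replicate 3 at 27.8 CPM, below every untreated library, and treated replicate 3 at 39.8 CPM. Kirrel3, Ahnak2, Gprc5c, Fam129a and Clmn overlapped with WT alone, Fcgrt with treated libraries alone, and Nhsl2, Sh3rf3, Npcd and Arhgdig with both.

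Noncoding genes, pseudogenes and gene models made up a small share. By GENCODE M21, 73 of the 83 members are protein-coding (88.0%, beside 92.2% of all 13431 genes), 4 are TEC models (4.82% beside 1.46%), 2 processed pseudogenes, 2 snoRNAs and 1 a long intergenic RNA, and 1 model (Gm16042) is not in that release. H19, the imprinted long noncoding RNA, was at 5.13, 4.03, 282 and 112 CPM in WT, 59.7, 51.8, 68.4 and 41 CPM in untreated and 118, 103, 91.1 and 152 CPM in treated libraries. WT replicates 1 and 2 were below every Ncf1-/- library, and without WT replicate 3 the shift from WT to Ncf1-/- was 0.45 in place of −0.86. Pabpc1l2b-ps, a pseudogene on the X chromosome, was at 7.48, 9.55, 7.21 and 12.8 CPM in WT, 3.66, 3.37, 3.61 and 3.77 CPM in untreated and 7, 6.1, 7.63 and 7.05 CPM in treated libraries. No untreated library of it overlapped the 8 others, although its reads could be shared with the parent gene.

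Several of these are uncertain as separate genes. RP23-113O9.3, Gm37385 and Gm37375 had the same expected counts in each library (within 2% or 0.6 counts) and are 1 measurement. Gm20388 spans many genes and had counts in 3 of the 12 libraries above 1 CPM. Snora7a and Gm22988, small nucleolar RNAs, lie within Rpl32 and Eif4a1, and Pcdha7 shares its last exons with other protocadherins of the cluster. Gm16042 was at 0.00712, 5.84, 2.31 and 2.11 CPM in WT and 1.99, 2.21, 3.27 and 0 CPM in treated libraries, and 0 to 0.00046 CPM in the untreated ones, so that its shift depends on the 0.5 CPM added.

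Genes just inside and just outside the limits differed little. At the limit between Ncf1-/- and WT, Gpc6 (−0.60) and Lrp5 (−0.61) were inside, and Cpne2 (−0.57), Gm25788 (−0.56) and Snora74a (−0.56) outside. At the limit with Igfbp2, Atp1b2, Akap6 and Rdh5 (each 0.59) were inside, and Kdm7a (0.58), Zxda (0.58) and Scarna3a (0.57) outside. At the limit to WT, Spock2 (−0.48), Ncan (−0.48) and Angptl4 (−0.47) were inside, and Abcc1 (−0.51), Sorl1 (0.52) and Ubr4 (−0.54) outside.

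The membership rested in part on 1 library. Without WT replicate 4, 69 genes met the rule, of which 60 were among the 83, and 23 members were lost. For 18 of the 23 the shift between untreated Ncf1-/- and WT no longer reached the limit, and for P4ha2 and Fgf11 it lay above 0. Shifts from WT to Ncf1-/- that were well short of the limit without it were those of Epm2a (−0.26), Gpc6 (−0.36), Rora (−0.36), Creg2 (−0.40), Lrp5 (−0.41) and Igfbp5 (−0.44). Sema3b (−0.50), Atp1b2 (−0.51), Clmn (−0.52), Irs2 (−0.52), Ltbp3 (−0.55), Foxo3 (−0.57) and Fam129a (−0.57) were nearer to it, and Scd2 (−0.583), Shank3 (−0.581) and Dnm1 (−0.582) missed it by little. Fos (−0.51), Angptl4 (−0.57), Fam19a2 (0.86) and Ankrd37 (0.51) were lost because treated Ncf1-/- was no longer near WT, by the shifts given, and Gprc5c because its highest group mean fell under 2 CPM. Epas1, Zfp36, Myh14, Nav2, Podxl, Prelp, Prune2 and Sv2c met the rule under each of the 23 alternatives. The named members that met it least often were Ncan (14 of 23), Atp1b2 and Spock2 (16 each) and Angptl4 (17).

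The members had higher medians of transcript length and GC than genes at large, features the rule did not use, and the differences were not tested. The longest transcript had a median of 5310 bases over 82 members with a GENCODE M21 model, beside 4566 over 1750 genes that were lower in Ncf1-/- by the limit and not higher after Igfbp2, and 3470 over all 13369 genes with a model. The median GC content was 53% beside 51.3% and 49.5%. The median gene span was 42.8 kb beside 51.3 kb and 24 kb, and the files listed a median of 2 transcripts per member beside 3 and 4.

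**Figure D5:**
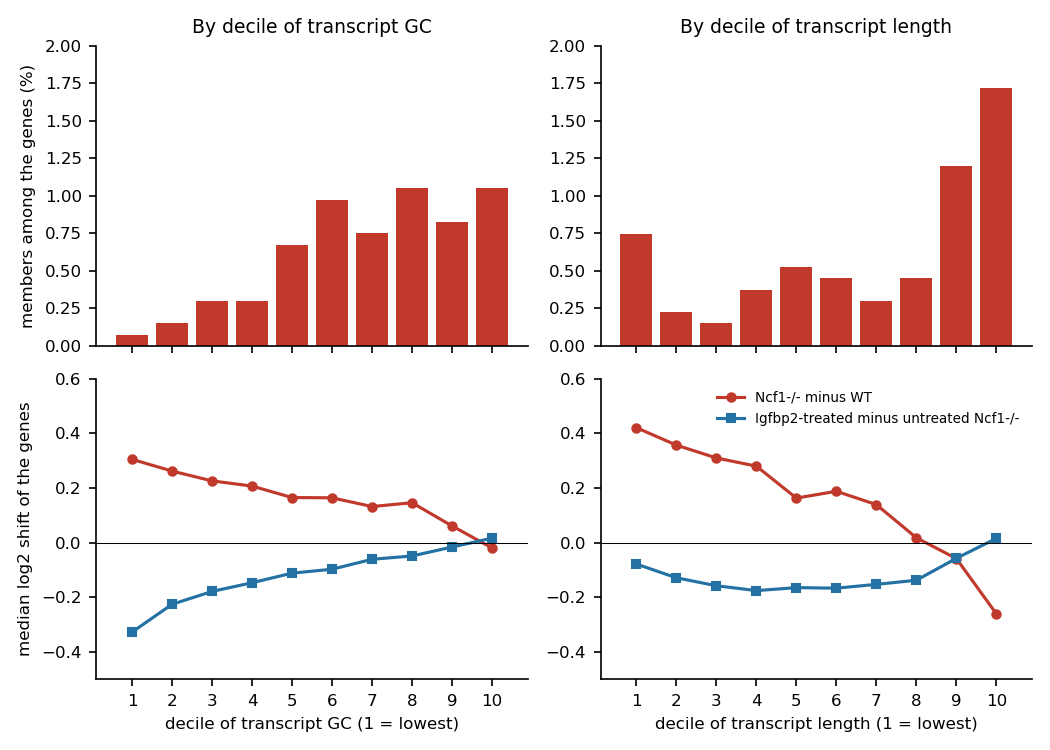
Genes with a highest group mean of at least 2 CPM in deciles of transcript GC (left) and of the length of the longest transcript (right). The upper panels give the percent of genes that are members, which ran from 0.0748% to 1.05% over the deciles of GC and reached 1.72% among the longest genes. The lower panels give the median log2 shift of all genes of the decile, which moved with both features.

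The shifts of all genes moved with the same features. Over deciles of GC, the median shift between untreated Ncf1-/- and WT was 0.31 in the lowest and −0.02 in the highest, and that with Igfbp2 went from −0.33 to 0.02. Over deciles of length, the first went from 0.42 to −0.26, and the second lay between −0.18 and 0.02. With shifts centred per decile of GC, 69 genes met the rule (66 of them members), and with shifts centred per decile of length 71 did (48 members). Both were chosen after seeing the data, and the part of length and GC in the members' values was not tested.

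Markers of differentiated cells also differed between the groups. The summed level of 15 myelinating oligodendrocyte genes was 2131 to 11520 CPM in WT, 385.8 to 470.2 CPM in untreated and 432.6 to 555.5 CPM in treated libraries, and that of 15 astrocyte genes was 13730 to 23960, 6864 to 8548 and 7022 to 9913 CPM. Of all genes tested, 28.2% were called lower and 28.9% higher in untreated Ncf1-/- than in WT. With Igfbp2, 14.2% were called higher and 10.7% lower, and the calls below stand beside these shares. Of 13 oligodendrocyte genes tested, 10 were called lower and 2 higher in untreated Ncf1-/- NSCs than in WT, and 1 higher and 0 lower with Igfbp2. Of 14 oligodendrocyte precursor genes, 12 were called lower and 2 higher in untreated Ncf1-/- NSCs, and 1, Cspg4, higher and 0 lower with Igfbp2. Cspg4 was the one member in the lists of 9 cell types. Pdgfra, the PDGF receptor of precursors, which was chosen after its values were seen, was at means of 315 CPM in WT, 88.1 CPM in untreated and 61.4 CPM in treated NSCs. Its lower level in treated than in untreated NSCs was not called. The pericyte, fibroblast and meningeal genes summed to 237 to 522 CPM in WT, 123 to 138 CPM in untreated and 137 to 156 CPM in treated libraries, while 6 of the 10 tested were called higher and 2 lower in untreated Ncf1-/- than in WT, and 5 higher and 0 lower with Igfbp2. Genes of microglia were near 0 or low, with Aif1, Ptprc, Tyrobp, C1qa and Cx3cr1 under 0.5 CPM in each library. The summed level of 15 NSC genes was 3468 to 10300 CPM in WT and 9191 to 11430 CPM in the Ncf1-/- libraries, while 9 of them were called lower and 4 higher in untreated Ncf1-/- than in WT. Nes was highest among WT libraries in replicate 3 (510.1 CPM). The part of cell makeup in the members' values was not tested.

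Of members on the same chromosome, 9 neighbouring pairs on a chromosome lay within 1000 kb of each other, among them Atp2b4 and Prelp on chromosome 1 (109.3 kb apart) and Atp1b2, Gm22988 and Fgf11 in a row on chromosome 11. Some pairs rest on Gm20388 or Gm22988, which are uncertain as separate genes. Pairs were not counted for other sets of genes, so nothing is read from this number. No member was a solute carrier, potassium channel, ribosomal protein, histone or collagen gene by symbol, classes that made up 1.65%, 0.313%, 0.745%, 0.521% and 0.208% of all genes. At such shares few or none are expected in a set of this size, and nothing is read from their absence.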

How the data were processed

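RNA of 12 NSC cultures was sequenced after ribosomal RNA depletion. The authors used Bowtie2 and RSEM with GRCm38, per the labels, with versions not given in the sources used here. The deposited tables hold RSEM expected counts per gene, which the authors did not normalize and which were used here. They also hold TPM, scaled by the authors for length and depth, and FPKM, which the authors deposited and which was not used. A deposited table of all libraries holds a score, TPM times the gene's transcript number, of which the gene symbols were used.

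Members and gene lists were chosen with earlier results of these data known. For calls over all genes, expected counts were rounded and fitted with edgeR 4.0.16 (R 4.3.3, filterByExpr, TMM factors, quasi-likelihood test, Benjamini-Hochberg adjusted p under 0.05) on the 3 groups together, in a script tested on simulated data. Values in each library are given for the 16 members of at least 5 CPM with the largest smaller shift, no overlap of untreated with other libraries and a gene symbol, for the 6 with the highest WT mean, and for up to 3 per gene list, 40 in all, a few of which are not reported here. Fgf11, Tenm3 and Gm16042 were added after their values were seen. Untreated and treated Ncf1-/- cultures are paired by animal in the study's methods. Deviations of same-numbered pairs correlated at −0.0673 to 0.0328 and of other pairs at −0.248 to 0.257. Intervals were not given, and the counts behind each value limit the precision of members of few CPM. Other scalings, minimums and added values, DESeq2 1.42.0, a replicate block and leaving out each library were tried.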

Additional observations from a re-analysis of the deposited data

Results flagged for a closer look

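In 13 of 162 groups of 4 libraries examined, the highest or lowest library lay further from the others than Dixon's limit for 4 values. That limit is set to be passed by chance in about 1 in 20. Many of the groups were of named members, which had been chosen by these values. The count is therefore not comparable with that rate, and nothing is read from it. Among members, WT replicate 4 was far above the other WT libraries for Fam19a2 (15.8 CPM, others 2.64 to 4.75), Dnm1 (15.2 CPM, others 5.41 to 6.10), Scd2 (7273 CPM, others 5306 to 5520) and P4ha2 (23.1 CPM, others 2.16 to 4.49). WT replicate 3 was far below the other WT libraries for Prune2 (12.2 CPM, others 23.8 to 25.3). Untreated replicate 1 was the lowest of its group for B3galt5 (1.99 CPM, others 2.87 to 2.94) and the highest for Sema3b (1.99 CPM, others 1.61 to 1.62). Igfbp2-treated replicate 4 was the highest of its group for Igfbp5 (839 CPM, others 554.7 to 567).

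Outside the members, WT replicate 4 stood apart for the summed Y-linked genes (7.03 CPM, others 118.9 to 135.1) and Xist (315.8 CPM, others 4.33 to 5.95). WT replicate 3 stood apart for Nes (510.1 CPM, others 128.2 to 176.0). The summed ependymal and choroid plexus genes were at 85.1 CPM in WT replicate 3 (others 25.5 to 35.6) and at 74.5 CPM in Igfbp2-treated replicate 3 (others 95.2 to 97.7).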

How the results depend on the processing

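The number of genes that met the rule was 83, and it was 186 with TMM-scaled CPM and 157 with shifts centred on all genes, both of which held all 83 members. It was 138 with rescaled TPM, of which 51 were members. Leaving out each library gave 69 to 100 genes. Between treated and untreated Ncf1-/- NSCs, 3923 genes were called (2238 higher and 1685 lower), and 5906 (648 higher, 5258 lower) when scaling by totals alone. Leaving out each library gave 2294 to 4872, with 2320 and 2294 without untreated replicates 1 and 2 and 2550 without treated replicate 2. The split between Ncf1-/- and WT was 4545 higher and 4433 lower, and 6024 and 3159 by totals alone. Between treated Ncf1-/- and WT it was 4964 and 4837, and 4198 and 5475. Members called there numbered 4, 2 with only those groups in the fit, and 2 to 13 when a library was left out (8, 11 and 13 without WT replicates 1, 3 and 4, and 2 without treated replicate 1).

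With the Ncf1-/- libraries alone in the fit, 5709 genes were called with Igfbp2 and 76 members higher in place of 68, and with a replicate block that paired the cultures in that fit, 5434 genes (2874 higher and 2560 lower) and 76 members. The shift of P4ha2 from WT to Ncf1-/- was 0.14 with medians in place of means and ran from −1.30 to 0.27 when a library was left out (the highest without WT replicate 4). That of H19 ran from −1.26 to 0.45 (the highest without WT replicate 3). Of 1840 alternative shifts of named members, 1781 stayed past the limit. Some of these could not change. Another minimum level altered no shift, and leaving out a treated library did not alter the shift from WT to Ncf1-/-. Leaving out a WT library did not alter the shift with Igfbp2. The members had also been chosen for shifts past the limit, so nothing is read from this count. The causes of the changes between settings were not tested.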
